A study of Arabidopsis thaliana with 4 samples.

Results

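The pericentromeric LEC1-GFP peaks are those whose midpoint lay in 1 fixed stretch around each centromere: chromosome 1 from 12 to 17.5 Mb, chromosome 2 from 1 to 7 Mb, chromosome 3 from 10.5 to 16.5 Mb, chromosome 4 from 1.5 to 5.5 Mb and chromosome 5 from 9 to 15.5 Mb of the TAIR10 genome. They numbered 396 of the 6356 peaks in the list, or 6.23%, and covered 90.4 kb of the 28 Mb in these stretches. Only position chose them, so their genes, widths and scores were not used in the choice. Everything outside the stretches, 5960 peaks, is called the chromosome arms.

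The peaks came from chromatin immunoprecipitation followed by sequencing (ChIP) of Arabidopsis thaliana seeds at the bent cotyledon stage, when the embryo fills with reserves. The genotype was lec1-1 LEC1:LEC1-GFP:LEC1, a mutant of the seed regulator LEAFY COTYLEDON1 (LEC1) that carries a fusion of LEC1 to green fluorescent protein between LEC1 flanking sequences. The groups were LEC1-GFP ChIP with an anti-GFP antibody (2 biological replicates) and input, the unprecipitated chromatin of the same genotype and stage (2 biological replicates). All 4 samples carry the transgene and come from whole seeds, so embryo, endosperm and seed coat are not separated. One peak list serves the whole series, with no value per sample. No value below therefore has a replicate error, the read depth is unknown, and no difference was tested. Ranges in brackets are 95% exact intervals for counting error.

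LEC1 is a NF-YB subunit of the NF-Y complex, which binds DNA together with NF-YA and NF-YC partners and is needed for embryo maturation. Pericentromeric DNA flanks the centromeres. In Arabidopsis it is mostly packed as heterochromatin, with dense DNA methylation, many transposable elements and few active genes. Genes there lie scattered as small islands among repeats.

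The gene annotation fitted that description. The stretches held 2708 protein-coding genes, or 96.7 per Mb, against 271 per Mb in the arms. Pseudogenes showed the opposite arrangement, with 3622 in the stretches, or 129 per Mb, against 13.4 per Mb in the arms. Of all annotated pseudogenes 74.8% lay in the stretches. The gene table does not say which pseudogenes derive from transposable elements. Noncoding genes numbered 790, or 28.2 per Mb, against 52.9 per Mb in the arms.

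LEC1-GFP peaks were sparse near the centromeres, even when set against the number of genes. There were 14.1 peaks per Mb (12.8 to 15.6) in the pericentromeric stretches and 65.4 per Mb (63.7 to 67.1) in the arms. Per 100 protein-coding genes there were 14.6 peaks (13.2 to 16.1) in the stretches and 24.1 (23.5 to 24.7) in the arms. Both values were lower in the stretches on each of the 5 chromosomes. The density ran from 12.5 peaks per Mb on chromosome 4 to 16.5 on chromosome 5. By number, chromosome 5 had 107 of the 396 peaks, chromosome 3 had 81, chromosome 1 had 80, chromosome 2 had 78 and chromosome 4 had 50. The sources used here do not say how reads that match several places in the genome were treated. Absent binding and reads that could not be placed cannot be told apart in the repeat-rich stretches.

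**Figure D1:**
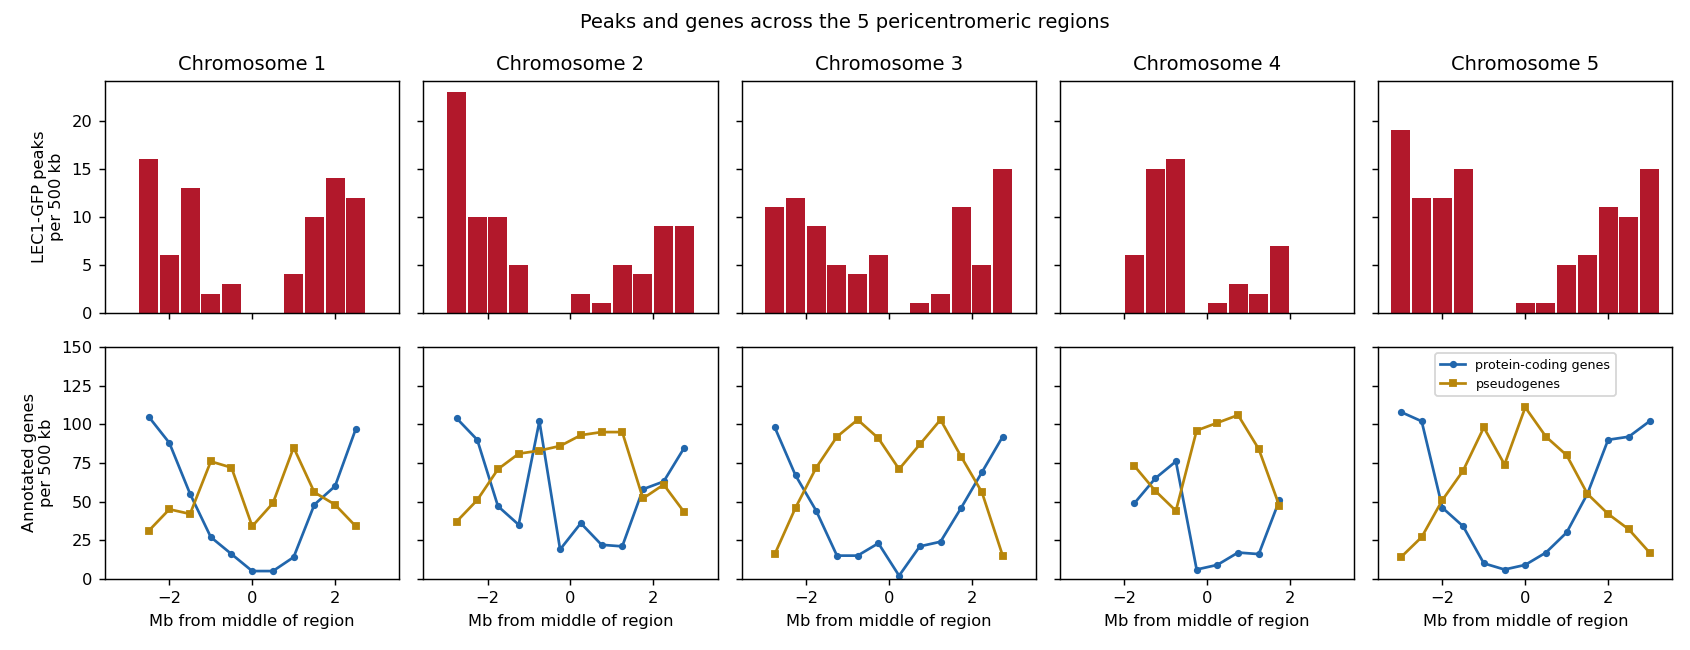
Number of LEC1-GFP peaks (upper row) and of protein-coding genes and pseudogenes (lower row) in 500 kb windows of each pericentromeric stretch, against the distance of the window from the middle of the stretch in Mb. The fullest window was an outermost one on chromosomes 1, 2, 3 and 5, with up to 23 peaks on chromosome 2, and 8 of the 56 windows had none.

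Within the stretches, most peaks lay toward the outer ends, where protein-coding genes were denser. Chromosome 4 differed, with its fullest window, of 16 peaks, 0.75 Mb left of the middle. Of 56 windows of 500 kb, 8 held no peak and 22 held fewer than 5. The fullest window, with 23 peaks and 104 protein-coding genes, was the outermost on the left of chromosome 2. Across the 56 windows Spearman's rho was 0.78 between the numbers of peaks and of protein-coding genes, and -0.69 between the numbers of peaks and of pseudogenes. Windows of 1 stretch are neighbours on the same chromosome, so both coefficients only describe the map. No window with more than 80 pseudogenes held more than 6 peaks. Just below that cut, the window of chromosome 3 from 15.0 to 15.5 Mb had 79 pseudogenes and 11 peaks.

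From the arms inward the density was lower in each successive class. It was 55.2 peaks per Mb in arm sequence 2 to 3 Mb outside the boundaries, 52.8 at 1 to 2 Mb outside and 46.5 in the last 1 Mb before them. These 3 classes hold 8, 8.5 and 10 Mb, because the left arms of chromosomes 2 and 4 are shorter than 3 Mb. Inside, the density was 26.6 per Mb in the first 0.5 Mb, 19 per Mb from 0.5 to 1 Mb, 14.4 from 1 to 2 Mb and 3 per Mb deeper than 2 Mb. The deepest class held 24 of the 396 peaks in 8 Mb. Depth was taken from the nearer boundary, so that class has no sequence on chromosome 4, whose stretch is 4 Mb long. Within 0.1 Mb of the boundaries, 29 peaks inside had scores of 1.96 to 3.41, with a median of 2.32, and 30 peaks outside had scores of 1.97 to 3.62, with a median of 2.45.

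A smaller share of protein-coding genes carried a peak near the centromeres than in the arms. A gene counts as bound here when a peak overlaps its body, or the 1000 bp beyond either end, by 1 bp or more. On that count 302 of 2708 pericentromeric genes were bound (11.2%, 9.99 to 12.4%), against 6436 of 24736 in the arms (26.0%, 25.5 to 26.6%). Over all chromosomes the share was 24.6%. Genes that share a peak are not independent, and 56 peaks in the stretches reached at least 2 protein-coding genes. The intervals on shares of genes ignore this and may be too narrow. The share was lower in the stretches on each of the 5 chromosomes, where it ran from 9.53% on chromosome 2 to 12.8% on chromosome 4. It was 21.0% in the 3 Mb of arm next to each boundary, 26.5 Mb in all because 2 arms are shorter. The genes just outside thus stood between the pericentromeric genes and the arms as a whole.

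**Figure D2:**
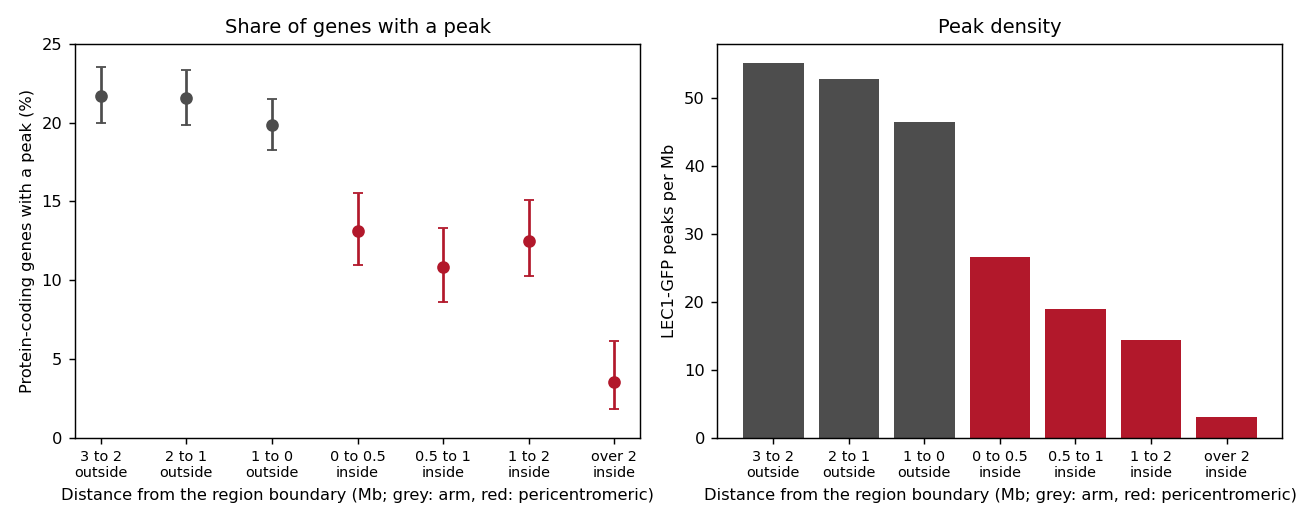
Share of protein-coding genes with a LEC1-GFP peak (left, with 95% exact intervals for counting error) and peaks per Mb (right) by distance from the boundary of the pericentromeric stretches, in arm sequence (grey) and inside (red). The share was 19.8% in the last 1 Mb of arm, 10.8 to 13.1% in the first 2 Mb inside and 3.55% deeper than that, where chromosome 4 has no sequence.

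By depth, the bound share was similar over the first 2 Mb inside the boundaries and lowest in the core. It was 21.7%, 21.6% and 19.8% in the 3 successive Mb of arm before the boundary, as far as each arm reaches. Inside it was 13.1% (11.0 to 15.5%) in the first 0.5 Mb, 10.8% (8.63 to 13.3%) from 0.5 to 1 Mb and 12.5% (10.3 to 15.1%) from 1 to 2 Mb, values whose intervals overlap. Deeper than 2 Mb, a core that takes in nothing of chromosome 4, only 12 of 338 protein-coding genes were bound (3.55%, 1.85 to 6.12%). Part of that core was the stretch of chromosome 2 from 3 to 4 Mb, where 0 peaks fell although the annotation lists 121 protein-coding genes. Chromosome 2 is known to carry a copy of much of the mitochondrial genome near its centromere, and the gene table does not mark which genes belong to that copy. Without that stretch the core had 12 bound genes of 217 (5.53%, 2.89 to 9.46%), and the share over all pericentromeric genes was 11.7%. The long runs without any protein-coding gene, one for each chromosome and 135 kb on chromosome 2 to 491 kb on chromosome 3, held no peak.

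Pseudogenes were abundant near the centromeres, and few had a peak. With the same rule 67 of 3622 pericentromeric pseudogenes had a peak (1.85%, 1.44 to 2.34%), against 110 of 1221 in the arms (9.01%, 7.46 to 10.8%), and 3.65% over all chromosomes. The annotation splits them in 2 types. Of those called pseudogene 49 of 3224 had a peak (1.52%), against 57 of 693 in the arms (8.23%). Of those called transcribed pseudogene 18 of 398 had one (4.52%), against 53 of 528 in the arms (10.0%). Noncoding genes had a peak at 66 of 790 (8.35%, 6.52 to 10.5%), against 977 of 4822 in the arms (20.3%, 19.1 to 21.4%), and 18.6% over all chromosomes. All 3 gene types thus had a lower share in the stretches, on each of the 5 chromosomes.

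**Figure D3:**
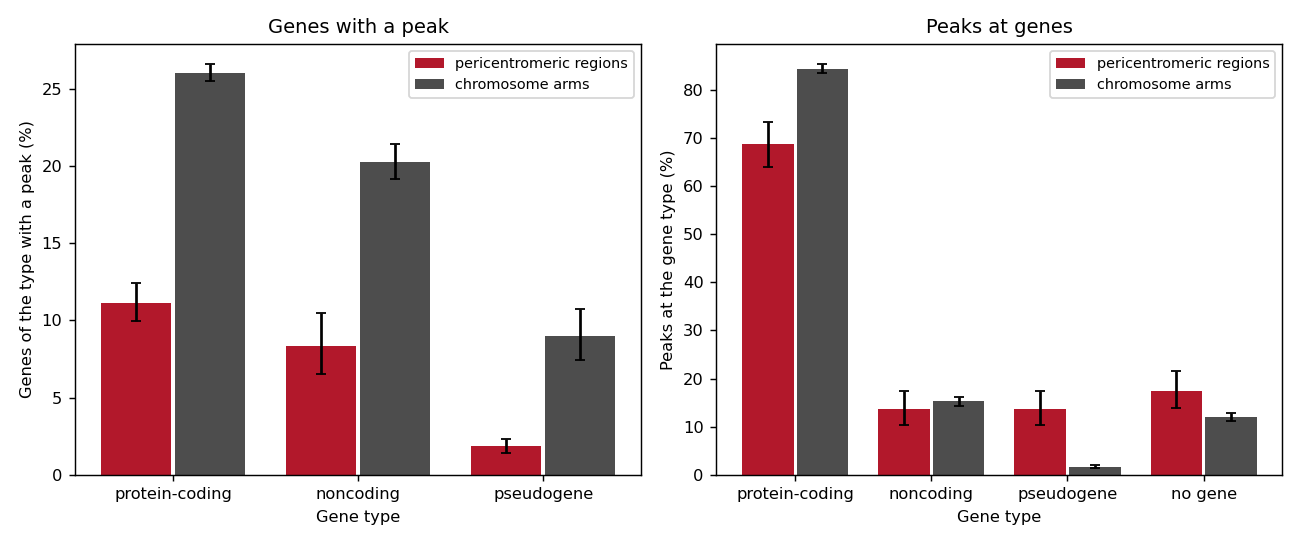
Left, share of genes of each type with a LEC1-GFP peak in the body or within 1000 bp; right, share of peaks whose midpoint lay in or within 1000 bp of a gene of each type. Red bars are the pericentromeric stretches, grey bars the chromosome arms, and lines are 95% exact intervals for counting error; pseudogenes had a peak at 1.85% in the stretches and 9.01% in the arms, while 13.6% and 1.64% of the peaks lay at pseudogenes.

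Seen from the peaks, most still lay at protein-coding genes, and pseudogenes took a larger share than in the arms. A peak counts as at a gene when its midpoint lay in the gene or within 1000 bp of an end, and it can count for several types. Of the 396 pericentromeric peaks 272 lay at a protein-coding gene (68.7%, 63.9 to 73.2%), against 84.3% of arm peaks (83.4 to 85.3%) and 83.4% of all peaks. Pseudogenes had 54 (13.6%, 10.4 to 17.4%), against 1.64% of arm peaks (1.34 to 2.00%) and 2.39% of all peaks. Noncoding genes also had 54 (13.6%), against 15.3% of arm peaks and 15.2% of all peaks, intervals that overlap. Against the 3 Mb of arm next to the boundaries the noncoding share was instead slightly higher, 13.6% and 13.4%. No annotated gene of any type lay within 1000 bp of 69 midpoints (17.4%, 13.8 to 21.5%), against 12.0% in the arms (11.2 to 12.8%). The shares for protein-coding genes, pseudogenes and no gene differed from the arms in the same direction on each of the 5 chromosomes.

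Many of the peaks at pseudogenes and noncoding genes were also beside a protein-coding gene. Of the 54 at pseudogenes 21 lay at a protein-coding gene too, and 33 did not. Of the 54 at noncoding genes 30 lay at a protein-coding gene too, and 24 did not. Midpoints fell inside 8 pseudogenes and inside 19 noncoding genes. With respect to protein-coding genes, 27.5% of midpoints lay inside one (23.2 to 32.2%), against 34.4% in the arms. A further 41.2% lay outside within 1000 bp (36.3 to 46.2%), against 49.9% in the arms. The remaining 31.3% lay farther away (26.8 to 36.1%), against 15.7% in the arms.

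The scores of pericentromeric peaks covered the whole range of the list. Scores are the authors' own, their scale is not stated in the labels or the list, and they serve to rank peaks within the list. They ran from 1.92 to 4.51 in the stretches, with a median of 2.41 (2.34 to 2.48), and had a median of 2.46 (2.44 to 2.47) in the arms. The difference of medians was small next to the interquartile range of 2.16 to 2.77. It was negative on 4 chromosomes and positive on chromosome 5, where the median was 2.498 in the stretch and 2.46 in the arms. With the stretches cut by 0.5 Mb at both ends the median was 2.46 against 2.45, so the sign of this difference depends on the boundaries. Of the 100 peaks with the highest scores 5 were pericentromeric, and of the 500 with the highest scores 26 (5.2%), beside 6.23% of all peaks.

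**Figure D4:**
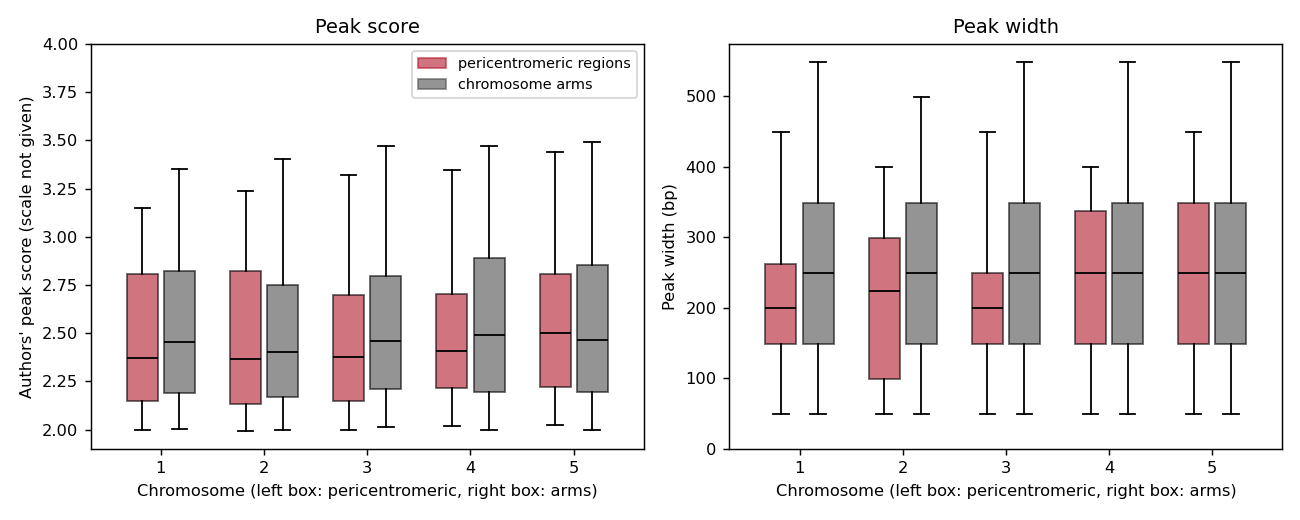
Peak score (left, the authors' scale) and peak width in bp (right) in the pericentromeric stretches (red, left box of each pair) and the chromosome arms (grey, right box) for each chromosome; boxes show the quartiles and the median, whiskers the 5th and 95th percentiles. Medians of score differed little, from 2.36 to 2.498 in the stretches, and the upper quartile of width was lower in the stretches on 4 of the 5 chromosomes and equal, at 349 bp, on chromosome 5.

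Pericentromeric peaks were more often narrow and less often wide than arm peaks. Width and score rose together across the pericentromeric peaks (rho 0.86), so they are not separate traits. Peak edges lie on a 50 bp grid, so widths move in steps. The median was 199 bp (199 to 249) in the stretches and 249 bp in the arms, 1 step apart, and the interval reaches the arm median. Median width was lower in the stretches on 3 chromosomes and equal on chromosomes 4 and 5. Peaks of at most 149 bp made up 39.4% of pericentromeric peaks (34.6 to 44.4%), against 31.4% of arm peaks (30.2 to 32.6%). Peaks of 349 bp or more made up 20.5% (16.6 to 24.8%), against 28.9% (27.7 to 30.0%). The widest pericentromeric peaks measured 699 bp, and the widest arm peak 1649 bp. Within the wide class the median scores were 3.01 in the stretches and 3.00 in the arms, and in the narrow class they were 2.13 and 2.11. In the middle class, 199 to 299 bp, the median was 2.58 in the stretches and 2.49 in the arms. Pericentromeric peaks away from protein-coding genes had a median score of 2.44 (2.31 to 2.57), and those at protein-coding genes 2.41 (2.33 to 2.49).

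The highest score of all 6356 peaks, 4.51, was pericentromeric. That peak lay on chromosome 3, 11383851 to 11384549, just outside AFP3, a member of the family of proteins that bind ABI5, a bZIP factor of the abscisic acid response. Its neighbour in the list had a score of 3.44 (11386851 to 11387249), with no annotated gene within 1000 bp. The next score in the stretches was 4.02, rank 28 of the list, on chromosome 4, 4843851 to 4844249. It lay beside the protein-coding gene AT4G07995, and the noncoding gene AT4G02875 and the transcribed pseudogene AT4G08022 also had it in their flanks. On chromosome 5 the highest score was 3.84 at AT5G38197 (15250601 to 15250949), and its neighbour AT5G38195 had a score of 3.59 (15246501 to 15247049). On chromosome 2 it was 3.81 (1515501 to 1515949), inside LACS8, a long-chain acyl-CoA synthetase, and in the flank of AT2G04340. On chromosome 1 it was 3.38 (12054701 to 12055149), beside GTL1, a trihelix transcription factor.

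Some of the peaks with the highest scores lay at transcription factor genes, namely RVE2, DPBF2, MYB74 and AGL44. The share of such genes was not compared with that at other peaks. These names therefore show no preference for transcription factor genes. RVE2, a MYB-like factor related to the circadian clock genes, had a score of 3.70 (chromosome 5, 14753051 to 14753449). DPBF2, which is bZIP67 and acts in seed maturation, had 3.64 (chromosome 3, 16081751 to 16082399). MYB74 had 3.62 (chromosome 4, 2620251 to 2620799) and a weaker peak of 2.25 inside the gene. AGL44, a MADS-box factor known as ANR1 from nitrate responses of roots, had a 699 bp peak with a score of 3.51 (chromosome 2, 6017951 to 6018649). AN3, a coactivator of growth-regulating factors that promotes leaf growth, had 3.48 (chromosome 5, 10649601 to 10650249), with the midpoint inside the gene. AT3G43110 with 3.81, AT5G37010 with 3.46 and AT5G28620 with 3.44 have no symbol in the gene table.

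The 17 gene lists below hold only pericentromeric genes. They were drawn up after the peaks were seen and with earlier results known, so their membership may follow the peaks. Their counts are descriptions. Over all pericentromeric protein-coding genes 11.2% were bound, with a median highest score of 2.48. A list share above or below that value cannot show enrichment or depletion. bZIP factors had a peak at 5 of 7 genes, with a median highest score of 3.15. After DPBF2 these were BZIP60, a factor of the unfolded protein response, with 3.18 (chromosome 1, 16137451 to 16137899) and ABF2, a factor of abscisic acid signalling, with 3.15 (chromosome 1, 17168901 to 17169449). BZO2H3, also called bZIP63 and linked to energy signalling, had 2.96 from a peak that reached it only by its edge, with the midpoint more than 1000 bp from any gene, and bZIP48 had 2.06 from a 49 bp peak. The ABF2 peak was shared with AT1G45230. bZIP42 and VIP1 had none.

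MYB and MYB-related factors had a peak at 5 of 10 genes, with a median highest score of 3.07. Besides RVE2 and MYB74 these were MYB30 with 3.07, MYB121 with 2.23 and HOS10 with 2.18. TT2, a regulator of seed coat pigment, was among those without one. ERF factors had a peak at 2 of 3 genes, RAP2.6 with 3.15 and RAP2.9 with 2.11. NAC factors had a peak at 2 of 6, NAC060 with 2.49 and NAC017 with 2.38, and WRKY factors at 1 of 5, WRKY3 with 2.36.

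Auxin response factors, MADS-box factors, peptide and defence genes had shares from 6.67 to 18.8%, near or below that of all pericentromeric protein-coding genes or slightly above it. Of 9 auxin response factors only ARF8, with a score of 2.27 (chromosome 5, 14629301 to 14629599), had a peak, and ARF12 to ARF15 and ARF20 to ARF23, all on chromosome 1, had none. MADS-box factors had a peak at 3 of 16, AGL44, AGL101 with 2.51 and AGL93 with 2.48. The AGL101 peak had its midpoint inside the transcribed pseudogene AT5G27037. Cysteine-rich peptide genes had a peak at 1 of 15, LCR40 with 2.11. Cysteine-rich receptor kinases and other defence genes had a peak at 2 of 18, RLP46 with 2.60 and ADR1 with 2.05, and PR1 had none. The RLP46 peak of 2.60 had its midpoint inside the noncoding gene AT4G04223. The 3 NF-Y subunit genes in the stretches, NF-YB7, NF-YC8 and NF-YC12, had no peak, too few genes to set against the 11.2%. These families hold similar copies, for which the placement of reads was not tested.

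Photosynthesis genes had a peak at 10 of 18, with a median highest score of 2.78. RBCS3B, a small subunit of Rubisco, had 3.39 (chromosome 5, 15378351 to 15378749), while RBCS1B and RBCS2B, close by, had 1 peak of 2.59 between them. CH1, which makes chlorophyll b, had 3.13 (chromosome 1, 16851151 to 16851449). LHCB2.2 and LHCB2.1, close copies of an antenna protein gene, had 3.11 (chromosome 2, 1800301 to 1800699) and 2.63 (1824401 to 1824749). RbcX1, a chaperone of Rubisco assembly, had 2.96 and ATPC1, a subunit of the chloroplast ATP synthase, had 2.84. The photosystem II genes PSBX and PSBQ-2 had 2.71 and 2.42. GAPB, NPQ4, OHP2, PGR5, Lhca5, APE1, CCB3 and HCF109 had none. The RBCS and LHCB2 genes are similar copies, so the share of each in these peaks is uncertain.

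Genes of lipid metabolism had a peak at 3 of 17: LACS8, the cardiolipin synthase gene CLS with 3.38 (chromosome 4, 2464001 to 2464399), and LACS7 with 2.26 from 2 weak peaks. Those without one included ACC1, ACC2 and CAC2, which act in making malonyl-CoA, and MOD1, an enoyl reductase of fatty acid synthesis. Of 3 gibberellin genes GA3, an enzyme of gibberellin synthesis, had 2.81 at a peak that IAA28 also had in reach, and GA20OX5 and the receptor gene GID1C had none. Of 3 seed coat genes UGT80B1 had a peak, with 2.48 and the midpoint inside the noncoding gene AT1G07177. Genes for 14-3-3 proteins had a peak at 2 of 3, GRF3 with 3.41 and GF14 PHI with 3.06.

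Genes for chromatin and RNA silencing had a peak at 2 of 18. HTA7, a histone H2A gene, had 2.80 (chromosome 5, 9793401 to 9793749) from a peak shared with RECQSIM, and CHR38, also called CLASSY 1 and part of RNA-directed DNA methylation, had 2.17 (chromosome 3, 14760551 to 14760699). DCL3, HDA9 and ARP6 were among the 16 without one. Cell cycle and replication genes had a peak at 3 of 14, CYCA1;1 with 2.97, RPA1A with 2.71 and CYCB1;5 with 2.27. The RPA1A peak was the one inside PSBX.

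**Figure D5:**
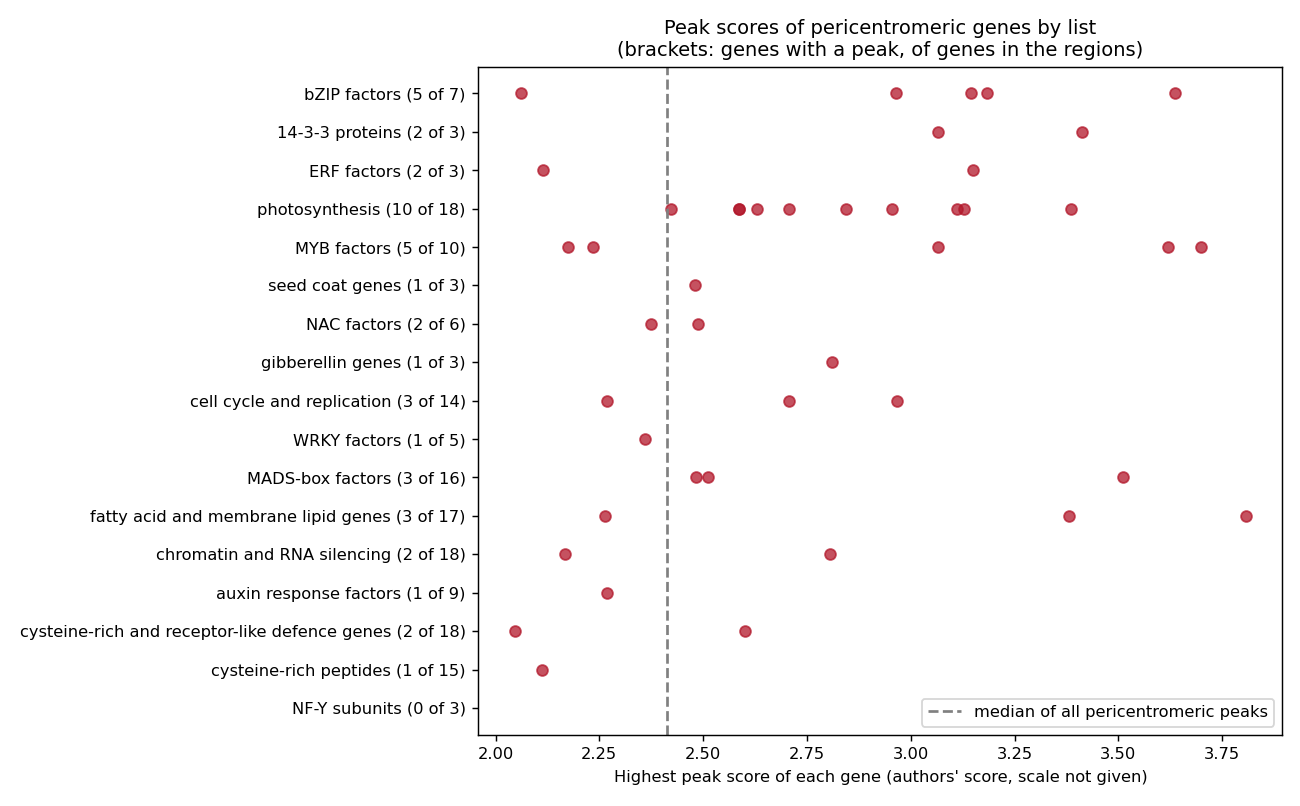
Highest peak score (authors' scale) of each pericentromeric gene with a peak, by gene list; brackets give the genes with a peak and the genes of the list in the stretches, and the dashed line marks 2.41, the median over all 396 pericentromeric peaks. All 10 bound photosynthesis genes lay at or above 2.42, and the lists of NF-Y subunits, cysteine-rich peptides and auxin response factors had 0, 1 and 1 bound genes.

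Several peaks at 1 gene were rare. Of the 302 bound protein-coding genes 269 had 1 peak, 29 had 2 and 4 had 3. SAP, an F-box protein gene of flower and organ development, had scores of 3.62, 2.74 and 2.32, all with midpoints inside the gene. ABCB19, an auxin transporter gene, also had its 3 peaks inside, with scores of 2.68, 2.16 and 2.05. EPF2, for a secreted peptide that limits stomatal cell divisions, had 2.29, 2.25 and 2.22. GRF6, a growth-regulating factor, had 2.25, 2.21 and 1.95. Peaks reached 1 protein-coding gene in 223 cases and at least 2 neighbouring ones in 56.

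Among pseudogenes with a peak in reach, the highest scores after AT4G08022 were 3.57 at AT2G12408 (chromosome 2, 5018701 to 5019399) and 3.56 at AT2G05985 (chromosome 2, 2319701 to 2320049). PMI15 had 3.29 (chromosome 5, 15225351 to 15225799), from a peak shared with AT5G38160 and the tRNA gene AT5G38155. AT1G34620 had 3.17, AT2G12407 had 3.16 and SADHU4-1, a retroposon copy by its name, had 3.09. AT2G15030 had 2.96, AT2G07070 had 2.94 and AT2G15012 had 2.92. Of these 10 pseudogenes only AT2G15030 had the midpoint inside, and AT2G12408 was reached by the edge of its peak, whose midpoint lay more than 1000 bp from any gene. Except for AT2G12408 and AT2G05985, each of them shared its peak with a protein-coding gene in reach. The peak of AT2G12407 had its midpoint inside the protein-coding gene AT2G12405. These scores therefore do not show binding at the pseudogene itself.

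Among noncoding genes the highest scores after AT4G02875 were 3.44 at AT5G00505 and AT5G04785, which shared a peak, 3.41 at AT5G05755 and 3.39 at AT5G05725 and AT5G05745, both near RBCS3B. AT1G09165, beside GTL1, had 3.38 and AT5G05455 had 3.35 (chromosome 5, 14755451 to 14755949). The tRNA gene AT5G38155 had 3.29 and AT5G04815 had 3.17. At these peaks no midpoint lay inside the named noncoding gene. All of them except those of AT5G05455 and AT5G04815 also had a protein-coding gene in reach. These scores therefore do not show binding at the noncoding gene itself. By type, peaks were found at 38 of 493 long noncoding RNA genes (7.71%), against 22.3% in the arms, at 3 of 51 tRNA genes (5.88%), against 13.9%, and at 1 of 53 microRNA genes (1.89%), against 13.6%. The microRNA gene was MIR398a, with a score of 2.06 (chromosome 2, 1040451 to 1040599), whose product regulates copper proteins. The annotation's miscellaneous RNA class had 18 of 128 (14.1%), against 21.8% in the arms, and its other noncoding RNA class had 6 of 38 (15.8%), against 27.9%. None of 17 small nucleolar RNA genes had a peak in reach, where a limit of 3 counts allows a share of up to 17.6%, against 13.3% in the arms.

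The 25 peaks nearest to the middle of the longest run without any annotated gene, 5 for each chromosome, include peaks well away from the centre of a stretch, since the run need not lie there. Their scores ran from 1.96 to 3.51, with a median of 2.48, and 5 of them had no gene in reach. On chromosome 1 the closest peak was 793 kb from that middle, and on chromosome 2 it was 7.90 kb away, at AT2G14110, with a score of 2.06. The peak of 3.51 among the 25 was the one at AGL44. On chromosome 3 a peak with a score of 2.70 (13480751 to 13480949) had no annotated gene in reach, and the next 2 by distance, with scores of 2.29 and 2.70, lay at the pseudogene AT3G32373. On chromosome 4 the 5 included the peak inside UBQ10, a polyubiquitin gene, with 2.79. On chromosome 5 the closest peak (12091551 to 12091799) had a score of 3.14 and no annotated gene in reach.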

How the data were processed

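LEC1-GFP ChIP and input libraries of bent cotyledon stage seeds (2 biological replicates each) gave 1 deposited peak list. Per the submitters' processing notes the genome build was TAIR10 and the tools included SAMtools 0.1.19 and Bowtie 0.12.7. Not given in the sources used here were the program that called peaks, the threshold it used, whether replicates were pooled, and how duplicate and multiply matching reads were treated. The peak score was deposited by the authors with no scale, so it served only to rank peaks within the list. The list holds no read counts, so the depth is unknown and intervals cover counting error only.

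Peaks and genes were placed by their midpoint. Genes came from a RefSeq table of TAIR10.1 with 37899 loci, matched by position, and that table gives no strand, exons or sequence. Over all peaks 34.0% of midpoints lay inside protein-coding genes with the coordinates as given, against 64.0% and 62.7% with the peaks moved by 10000 bp either way. For pericentromeric peaks the same shares were 27.5%, against 31.1% and 31.8%, a small contrast, so this check of the coordinates rests on the arms. The arms ran to the last annotated gene or peak of each chromosome, 91.1 Mb in all. Shares carry exact Clopper-Pearson intervals, densities exact Poisson intervals and medians order-statistic intervals (95%). The computations used Python 3.11.15, pandas 2.3.3, numpy 2.4.6 and scipy 1.17.1 and were tested on simulated data.

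Position alone decided which peaks were members, but the stretches, the 17 lists and the named genes were chosen with earlier results of these data known. Genes were named at the 20 peaks with the highest scores, at the highest peak of each stretch, at 3 or more peaks, as list members and near the gene-free runs. Up to 10 noncoding genes were named, and pseudogenes were likewise held to the 10 with the highest scores, although the rule allowed all 67. The lists were drawn up after the peaks were seen, in place of lists of the earlier analysis that were not used here. No oleosin, late embryogenesis abundant, maturation B3, clade A phosphatase or DELLA gene was found by symbol in the stretches. Promoter motifs were not analysed here. The alternatives tried were other boundaries, arms, flanks, overlaps, score and width limits and leaving out each chromosome.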

Additional observations from a re-analysis of the deposited data

How the results depend on the processing

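Of 180 alternatives for 14 results, 31 left the pericentromeric value identical. In 14 of these only the arms changed, which says nothing of its stability. Also among the 31 was the median width, at 199 bp with either change of boundaries and without each chromosome. There the set of peaks did change. Of the other 149 values, 107 stayed within the 95% interval of the value reported, 39 moved outside it (38 in the same direction and 1 with no difference from the arms left) and 3 reversed. In the stretches cut by 0.5 Mb at both ends there were 11.4 peaks per Mb, against 63.4 in the arms. The median score there was 2.46 against 2.45 in the arms, a reversal. Widened by 0.5 Mb, the stretches had 18.2 peaks per Mb, 13.1% of protein-coding genes bound and 9.97% of peaks at a pseudogene. The arms then had 66.8 per Mb, 26.4% and 1.60%. Set against the 3 Mb of arm next to each boundary, the share of peaks at noncoding genes reversed (13.6% against 13.4%), the share at pseudogenes was 13.6% against 2.58%, the share at no gene 17.4% against 14.7%, and 11.2% against 21.0% of protein-coding genes were bound.

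With the 3178 peaks at or above the median score there were 6.71 peaks per Mb and 6.94 per 100 protein-coding genes, against 32.8 and 12.1 in the arms. Then 5.87% of protein-coding genes, 5.44% of noncoding genes and 0.911% of pseudogenes were bound, against 14.3%, 10.7% and 4.67% in the arms. The share of these 3178 peaks at noncoding genes reversed (16.5% against 14.8% in the arms). In the stretches 22.3% of midpoints lay inside protein-coding genes, against 32.2% in the arms. The median width was 299 bp against 349 bp, and the median score 2.80 against 2.82. Without peaks at or under the first quartile of width there were 8.57 peaks per Mb and 8.86 per 100 protein-coding genes, with 7.57%, 6.08% and 1.13% of the 3 gene types bound. The median width was then 299 bp in both groups, and the median score reversed (2.68 against 2.66 in the arms). These 2 settings hold fewer peaks by construction.

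With flanks of 500 bp, 8.83% of protein-coding genes, 5.95% of noncoding genes and 0.883% of pseudogenes were bound, and 56.6%, 10.1% and 6.31% of peaks lay at the 3 types, 32.1% at none, 29.0% outside protein-coding genes within the flank and 43.4% farther. With flanks of 2000 bp the same values were 14.5%, 11.5% and 3.09%, then 79.5%, 21.5% and 24.0%, 6.57%, 52.0% and 20.5%. In the arms 21.7%, 14.9% and 5.65% of the 3 gene types were bound with flanks of 500 bp, and 72.6%, 10.8% and 0.956% of peaks lay at them. With flanks of 2000 bp the arm shares were 33.4%, 28.2% and 15.2% of genes, and 93.9%, 22.4% and 3.15% of peaks. With gene bodies not counted 9.27% of protein-coding genes were bound, against 22.8% in the arms. Away from protein-coding genes by more than 1000 bp, 5.53% of noncoding genes and 1.37% of pseudogenes were bound, against 21.6% and 7.83% in the arms. The cause of the reversals was not tested.

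Leaving out each chromosome in turn kept all 14 results within their intervals: 13.4 to 14.5 peaks per Mb, 14.3 to 15.7 per 100 protein-coding genes, 10.8 to 11.7% of protein-coding genes bound, 7.77 to 9.11% of noncoding genes and 1.73 to 2.02% of pseudogenes, and median scores of 2.37 to 2.43. Without chromosome 2 from 3 to 4 Mb, an alternative chosen after seeing the data, these shares bound were 11.7%, 9.02% and 1.94%. No paired analysis was possible because the list has no value per sample.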

Other observations

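Genes outside the lists, chosen after their values were seen, add metabolic and signalling loci to the map of pericentromeric peaks. In primary metabolism, AGT, an aminotransferase of photorespiration, had a peak with a score of 2.95 and FBP, a fructose bisphosphatase, had one of 2.84, both with midpoints inside the gene. PHS1, a starch phosphorylase, had 2.85, CAS1, a cycloartenol synthase of sterol synthesis, had 2.94 from a peak shared with the pseudogene AT2G07070, and ALN, an allantoinase of purine breakdown, had 2.63. ACO3, an aconitase, had 2.24 from a narrow peak. Callose synthase genes had a peak at GSL05, with 2.81 and shared with the channel gene TPC1, at GSL1 with 2.35 and at CALS5 with 2.26. In signalling, the F-box gene FBS3 had 2 peaks, with 3.16 and 2.70, IBR5, a phosphatase of auxin responses, had 2.94 and TPR3, a TOPLESS-related corepressor, had 2.70. The TPR3 peak had its midpoint inside the noncoding gene AT5G04345. The chaperone genes BIP1 and CR88 had 2.49 and 2.14.

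Peaks with no annotated gene within 1000 bp of the midpoint included several with high scores. After the peaks on chromosomes 2 and 3 given above, the highest were 3.35 on chromosome 4 (5226901 to 5227199), 3.33 on chromosome 5 (15126451 to 15126899), 3.26 on chromosome 5 (10555851 to 10556149) and 3.24 on chromosome 2 (2059101 to 2059499). All 69 such peaks had a median score of 2.43 (2.31 to 2.58) and a median width of 199 bp, against 2.48 (2.45 to 2.54) and 249 bp for the 714 in the arms, intervals of score that overlap.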
